A study of Mus musculus with 30 samples.

Results

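The genes described here are 10 regulators of the G1 phase of the cell cycle: the D-type cyclins Ccnd1, Ccnd2 and Ccnd3, the E-type cyclins Ccne1 and Ccne2, the kinases Cdk4 and Cdk6, and the CDK inhibitors Cdkn1b, Cdkn1c and Cdkn2c. They were picked by gene symbol, with earlier results of these data known, and 10 of the 57186 gene identifiers of the count table carried these symbols. RNA was sequenced from NIH/3T3, a mouse fibroblast line kept in DMEM with serum, and from CGR8, a mouse embryonic stem cell line kept in N2B27 with 2i/LIF. Both lines had the genotype ROSA26 SLT knock-in, a change at a locus often used to carry transgenes, so no library came from unmodified cells. Cells received cycloheximide (CHX), an inhibitor of translation elongation, at 0.1 µg/mL. How far this dose slowed translation cannot be read from RNA counts. RNA was taken at 0, 1, 2, 5 and 48 h in 3 replicates (A, B and C), giving 10 groups and 30 libraries. The 0 h groups are the initial timepoint and serve as the control of their own line. The labels nevertheless assign the same CHX treatment to all 30 libraries. No later time has an untreated library, so CHX and time in culture cannot be told apart. The labels do not say whether the replicates were separate cultures or whether a line was 1 clone, so the p-values measure only the spread between these libraries.

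Cells commit to a new division in G1. Cyclin D with CDK4 or CDK6, and then cyclin E with CDK2, phosphorylate the retinoblastoma protein and its relatives, which releases E2F transcription factors and turns on genes of DNA synthesis. INK4 inhibitors such as p18 (Cdkn2c) bind CDK4 and CDK6, whereas the CIP/KIP inhibitors p27 (Cdkn1b) and p57 (Cdkn1c) bind cyclin-CDK complexes more broadly. In cultured fibroblasts cyclin D1 is the classical link between serum mitogens and this switch, while mouse embryonic stem cells are known for a short G1 and high cyclin E activity.

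Library totals ranged from 18.2 to 30.5 M counts (mean 24.2, SD 2.95, n = 30). Most markers separated the lines as labelled. Of the embryonic stem cell markers, 6 of 6 stayed at or below 0.377 CPM (counts of a gene per M counts of its library) in NIH/3T3. In CGR8 they stayed at or above 373 CPM. Col1a1, Col1a2, Col3a1 and Lox stayed at or above 219 CPM in NIH/3T3 and at or below 0.719 CPM in CGR8. The fibroblast marker Thy1 went the other way, at most 0.0914 CPM in NIH/3T3 and 1.48 to 4.51 CPM in CGR8. Another, Postn, was scarce in both, at most 0.993 CPM in NIH/3T3 and 0.0346 CPM in CGR8. In 4 libraries the expressed genes lay far from the other replicates of the group (root mean square log2 distance above 0.5, against 0.292 in the closest library): NIH/3T3 1 h replicate C (0.554), NIH/3T3 2 h replicate A (0.534), CGR8 0 h replicate B (0.514) and CGR8 2 h replicate A (0.579). Calls in comparisons that use these libraries were all kept when the 4 were left out together. Levels below are CPM, a share of each library's counts after scaling, so in these bulk samples fewer cells that express a gene and less of its RNA per cell cannot be told apart. Fold changes are fitted by edgeR, a gene is said to rise or fall at an adjusted p under 0.05, and n = 3 in every group. Overlap of libraries between groups is described without a test, and its share over all genes is not given. With 3 libraries a group can stand clear without a call, as Ccnd1 did in NIH/3T3 at 1 h (adjusted p = 0.814).

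**Figure D1:**
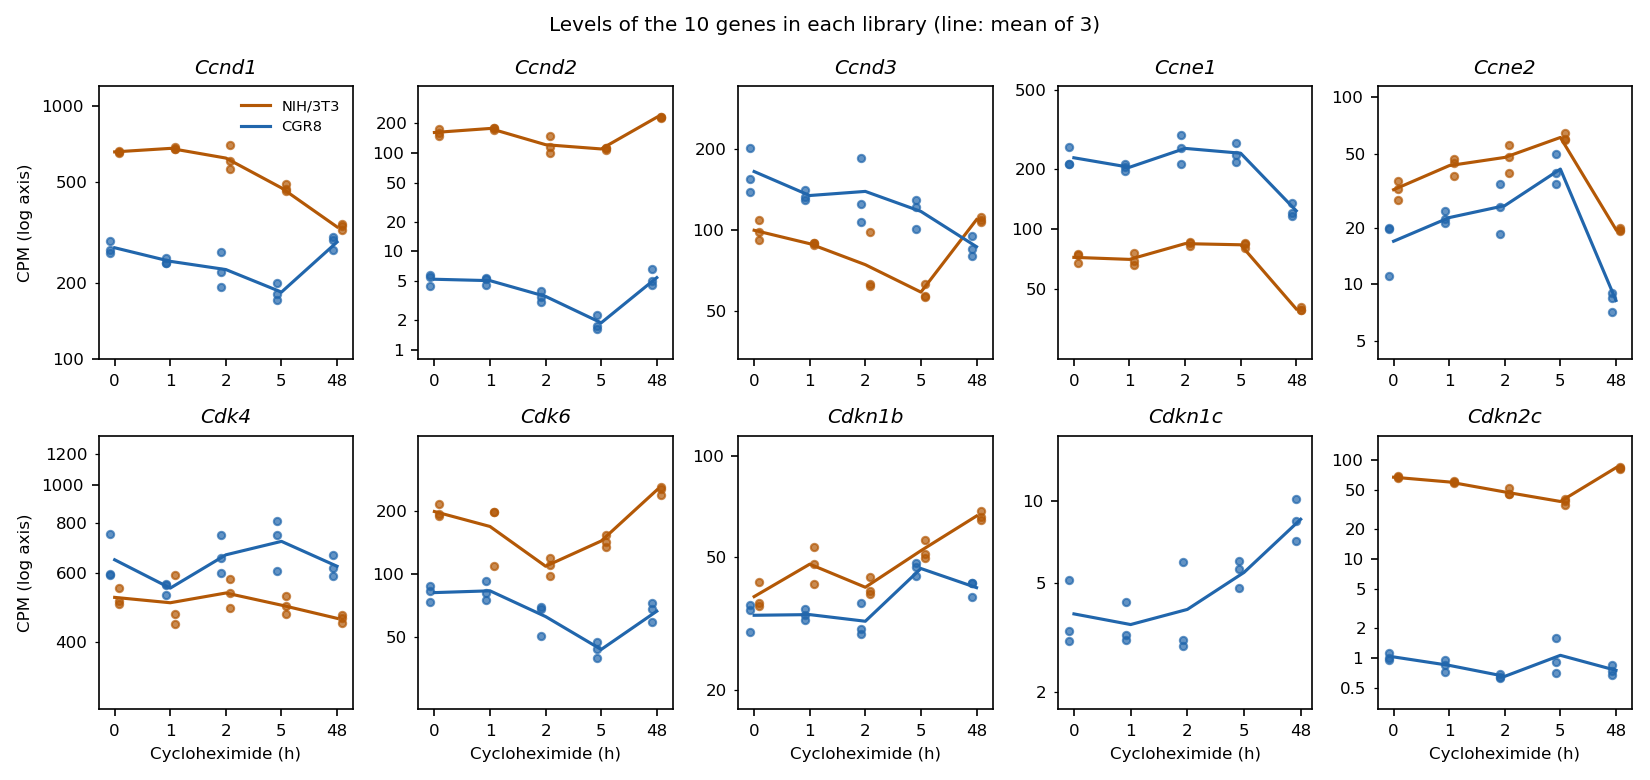
Level of each gene in CPM (log axis, own scale in each panel) by hours of cycloheximide, with times spaced evenly. Dots are libraries and lines join the means of 3 (orange NIH/3T3, blue CGR8). Cdkn1c in NIH/3T3 is not drawn because each library held 0 or 1 count. Ccne2 peaks at 5 h and is lowest at 48 h in both lines, whereas Ccnd1 is lowest at 48 h in NIH/3T3 and at 5 h in CGR8.

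The clearest pattern common to both lines was in the cyclins. At 5 h the 3 D-type cyclins had fallen and Ccne2 had risen in NIH/3T3 and in CGR8, and at 48 h both E-type cyclins lay below their starting level in both lines. Of the 9 genes tested in NIH/3T3, 0 were called at 1 h, where 0.732% of all genes tested were called, and 6 at 2 h, where 35.0% were. At 5 h 8 of 9 were called against 51.0% of all genes, and at 48 h 6 of 9 against 52.3%. In CGR8, 0 of 10 were called at 1 h (0.270% of all genes), 1 at 2 h (19.9%), 6 at 5 h (52.1%) and 4 at 48 h (27.8%). Much of the transcriptome was called at 5 h, and the share of members called in CGR8 lay near that background. The members' counts were not tested against it. The count for CGR8 at 2 h was 4 with DESeq2 and 4 without the 2 distant libraries of that line.

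By direction, 2 genes rose and 4 fell in NIH/3T3 at 2 h, when 16.1% of all genes tested rose and 18.9% fell. At 5 h 3 rose and 5 fell (24.0% and 27.1% of all genes), and at 48 h 3 rose and 3 fell (26.7% and 25.6%). In CGR8 2 rose and 4 fell at 5 h (24.9% and 27.2% of all genes), and 1 rose and 3 fell at 48 h (12.2% and 15.6%). The median log2 fold change of the tested members at 5 h was -0.43 in NIH/3T3 and -0.003 in CGR8, beside -0.01 over all genes in each line.

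At 1 h edgeR called 0 members in either line. An unadjusted p under 0.05 was found for 2 of the 9 tested in NIH/3T3, beside 1575 of 13941 genes. In CGR8 it was found for 0 of 10, beside 1289 of 15933 genes. The 2 in NIH/3T3 were Ccne2, at a log2 fold change of 0.45 (SE 0.12, adjusted p = 0.108), and Cdkn1b, at 0.35 (SE 0.11, adjusted p = 0.18). DESeq2 called 1 member there and voom with sample weights called 2, and without the 2 distant libraries of that line, 1 h replicate C and 2 h replicate A, edgeR called 2, Ccne2 at 0.37 (adjusted p = 0.0136) and Cdk4 at -0.18 (adjusted p = 0.0404). Voom and DESeq2 both called 0 in CGR8 at 1 h.

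**Figure D2:**
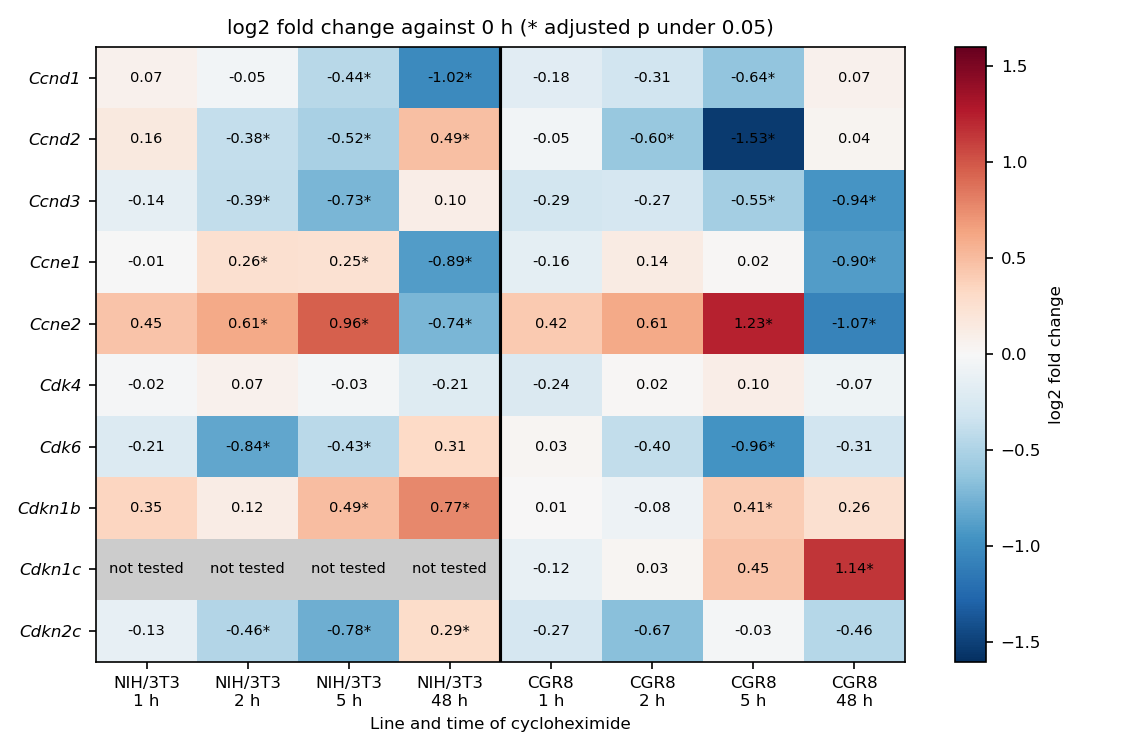
Fitted log2 fold change against 0 h for each gene (rows) at each time and line (columns), red for higher and blue for lower, with * for an adjusted p under 0.05. The cyclin D rows are blue at 5 h in both lines and part at 48 h, the Ccne2 row turns from red at 5 h to blue at 48 h, and no Cdk4 value carries a *.

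Ccnd1, whose product is the mitogen-responsive cyclin D1, fell at 5 h in both lines, and at 48 h it lay lower still in NIH/3T3 but within its 0 h range or above in CGR8. In NIH/3T3 it stood at 664, 659.6 and 649.9 CPM at 0 h (replicates A, B and C), 699, 606 and 561 at 2 h, 493, 459 and 469 at 5 h and 323, 339.6 and 334 at 48 h. The 5 h and 48 h libraries lay below all 0 h libraries and did not overlap each other, while those of 2 h overlapped 0 h. The log2 fold change was -0.44 (SE 0.085, adjusted p = 0.00043) at 5 h and -1.02 (SE 0.085, adjusted p = 1.23e-07) at 48 h, a level 2.02-fold lower. In CGR8 the libraries held 269.8, 292 and 263 CPM at 0 h, 171, 198 and 181 at 5 h and 269, 296 and 303 at 48 h. The 5 h group lay below 0 h and the 48 h group overlapped it. Ccnd1 fell at 5 h, at -0.64 (SE 0.11, adjusted p = 0.000216) on the log2 scale. The 48 h value was 0.07 (SE 0.11, adjusted p = 0.708), with a 95% interval of -0.15 to 0.28. The CGR8 value at 2 h was -0.31 (SE 0.11, adjusted p = 0.0613). It passed the test there in DESeq2 and without the distant replicate A of that group. In order of mean level the NIH/3T3 groups ran 1, 0, 2, 5 and 48 h, where 2 h overlapped both 0 h and 1 h. The CGR8 groups ran 48, 0, 1, 2 and 5 h, where 0 h overlapped 48 h and 2 h, and 2 h overlapped 1 h and 5 h. In the mouse annotation GENCODE M21, 23.4% of the exon bases of Ccnd1 are shared with LTO1 on the other strand, and the sources used here do not give how strand was used in counting.

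Ccnd2 encodes cyclin D2, and its mRNA separated the lines most among the cyclins. In NIH/3T3 it was measured at 161, 175 and 148 CPM at 0 h, 106, 112 and 111 at 5 h and 225, 233 and 234 at 48 h. All 5 h libraries lay below, and all 48 h libraries above, those of 0 h. On the log2 scale the change was -0.52 (SE 0.12, adjusted p = 0.00156) at 5 h and 0.49 (SE 0.12, adjusted p = 0.00253) at 48 h. At 2 h, with 149, 116 and 99.02 CPM, replicate A overlapped 0 h and the value was -0.38 (SE 0.12, adjusted p = 0.0208). Without 2 h replicate C this became -0.23 (adjusted p = 0.137), and 3 other libraries also ended the call when left out: 0 h replicate A (adjusted p = 0.0573), 0 h replicate B (0.0862) and 2 h replicate B (0.0737). In CGR8 Ccnd2 was scarce, at 5.70, 5.47 and 4.42 CPM at 0 h, 3.91, 3.46 and 3.07 at 2 h, 1.64, 2.23 and 1.76 at 5 h and 4.56, 4.98 and 6.66 at 48 h, from 36 to 181 counts per library. Levels at 2 h and 5 h did not overlap those of 0 h, and those of 48 h did. The fall at 5 h was the largest of the 10 genes in that line, at -1.53 (SE 0.19, adjusted p = 1.26e-05) on the log2 scale, or 2.89-fold lower. At 2 h it was -0.60 (SE 0.18, adjusted p = 0.0269), and the call ended without 0 h replicate A (adjusted p = 0.109), 0 h replicate B (0.0542) or 2 h replicate C (0.133). By 48 h the difference from 0 h was 0.04 (SE 0.17, adjusted p = 0.89). Ordered by mean, NIH/3T3 ran 48, 1, 0, 2 and 5 h with 48 h alone clear of the next, and CGR8 ran 48, 0, 1, 2 and 5 h with 2 h and 5 h clear of the group above.

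Ccnd3, for cyclin D3, fell at 5 h in both lines but differed at 48 h. In NIH/3T3 it stood at 98.2, 91.7 and 108 CPM at 0 h, 97.6, 62.7 and 61.9 at 2 h, 62.9, 56.2 and 56.6 at 5 h and 109, 112 and 106 at 48 h. The 5 h libraries lay below 0 h without overlap, 2 h replicate A lay within the 0 h range, and 48 h overlapped 0 h. Its log2 fold change was -0.73 (SE 0.14, adjusted p = 0.000332) at 5 h and 0.10 (SE 0.14, adjusted p = 0.542) at 48 h. For 2 h it was -0.39 (SE 0.14, adjusted p = 0.0343), and -0.634 without the distant replicate A (adjusted p = 4.36e-05). That 2 h call was lost without 0 h replicate A (adjusted p = 0.0769), 0 h replicate C (0.142), 2 h replicate B (0.153) or 2 h replicate C (0.197, at -0.26). In CGR8 the values were 155, 201 and 138 CPM at 0 h, 121, 129 and 100.3 at 5 h and 95, 84.5 and 79.6 at 48 h. Replicate B, a distant library, was the highest at 0 h, and neither later group overlapped 0 h. Ccnd3 fell in CGR8, at -0.55 (SE 0.17, adjusted p = 0.0142) on the log2 scale at 5 h and -0.94 (SE 0.17, adjusted p = 0.000781) at 48 h. Without 0 h replicate B the 5 h value was -0.37 (adjusted p = 0.0913), and without 5 h replicate C it was -0.46 (adjusted p = 0.0529). The groups of CGR8 ran 0, 2, 1, 5 and 48 h by mean, with 48 h clear of all other groups, while NIH/3T3 ran 48, 0, 1, 2 and 5 h where 0 h overlapped 48 h and 2 h, and 2 h overlapped 1 h and 5 h.

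Per length of exon, CPM per kb allows the 3 D-type cyclins to be set beside each other. Ccnd1 was the most abundant in every group. In NIH/3T3 at 0 h Ccnd1 made up 83.1% ± 0.220 (SD, n = 3) of the summed D-type level, Ccnd2 10.2% ± 0.745 and Ccnd3 6.74% ± 0.638. By 48 h the shares were 65.6% ± 0.240, 22.8% ± 0.220 and 11.6% ± 0.297, and no library of 48 h overlapped those of 0 h for any of the 3. The summed level was 168 ± 1.79 CPM per kb at 0 h, 119 ± 3.84 at 5 h and 107 ± 2.43 at 48 h. The 5 h shares were 84.6%, 9.81% and 5.61%, that of Ccnd1 above and that of Ccnd3 below its 0 h range. CGR8 had less D-type mRNA and a different makeup, with 75.3% ± 2.53 Ccnd1, 0.712% ± 0.0790 Ccnd2 and 24.0% ± 2.53 Ccnd3 at 0 h. Its shares at 48 h were 85.5% ± 1.76, 0.796% ± 0.137 and 13.8% ± 1.86, and the 48 h libraries overlapped those of 0 h for Ccnd2 but not for Ccnd1 or Ccnd3. Its summed level was 77.6 ± 6.96 at 0 h, 52.5 ± 4.04 at 5 h and 71.9 ± 3.03 at 48 h. The share of Ccnd1 at 48 h was thus below its 0 h range in NIH/3T3 and above it in CGR8. These shares are a description, with no test. The exon lengths come from GENCODE M21, another build and release than the deposited counts.

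**Figure D3:**
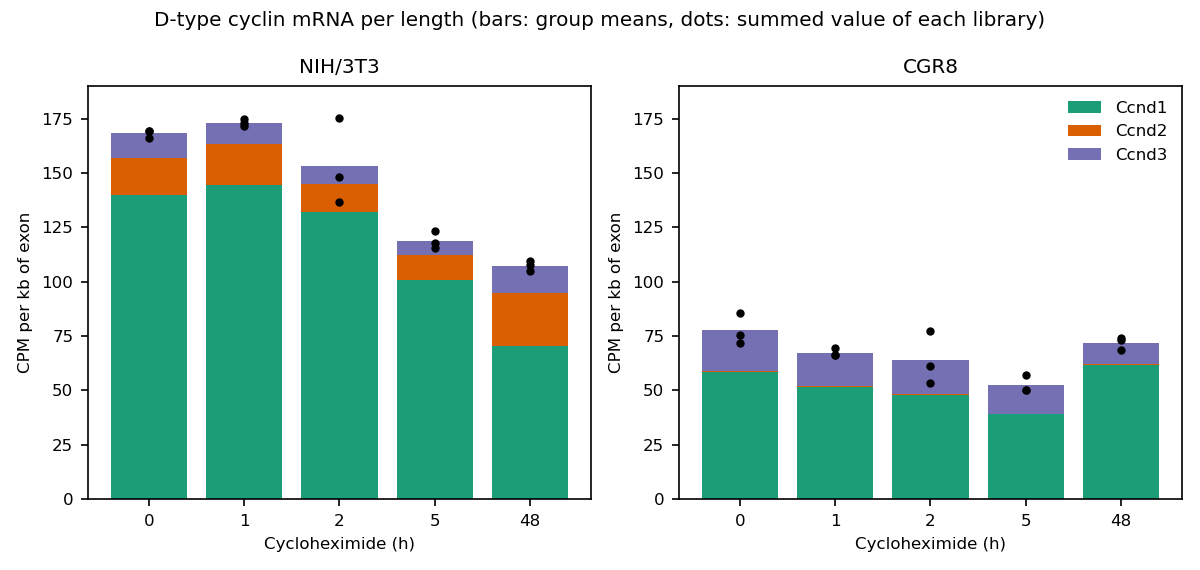
Summed level of the D-type cyclins in CPM per kb of exon (bars start at 0) by hours of cycloheximide, stacked as group means of Ccnd1, Ccnd2 and Ccnd3, with a dot for the sum in each library. In NIH/3T3 the stack goes down to 107 at 48 h with a wider Ccnd2 band, and in CGR8 it is lowest at 5 h and stands at 71.9 at 48 h, mostly Ccnd1.

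The E-type cyclins, which activate CDK2 late in G1, fell at 48 h in both lines, and no fall was called before that. Ccne2 held 32.5, 35.6 and 28.1 CPM in NIH/3T3 at 0 h, 39.5, 55.7 and 47.9 at 2 h, 59.9, 64.3 and 58.7 at 5 h and 20.1, 19.4 and 19.4 at 48 h. Groups at 2 h and 5 h lay above, and 48 h below, all 0 h libraries. Its log2 fold change was 0.61 (SE 0.12, adjusted p = 0.00161) at 2 h, 0.96 (SE 0.12, adjusted p = 9.81e-06) at 5 h and -0.74 (SE 0.12, adjusted p = 0.000131) at 48 h. In CGR8 the levels were 19.9, 11.1 and 20.1 CPM at 0 h, 18.6, 25.9 and 34.5 at 2 h, 34.6, 39.5 and 49.9 at 5 h and 7.11, 8.47 and 9.04 at 48 h. Replicate B at 0 h, a distant library, was the lowest of its group, and the 5 h and 48 h groups overlapped 0 h in no library. The log2 fold change was 1.23 (SE 0.23, adjusted p = 0.000375) at 5 h, a 2.34-fold level, and -1.07 (SE 0.24, adjusted p = 0.00323) at 48 h. Without the distant libraries these were 1.005 (adjusted p = 0.000129) and -1.29 (adjusted p = 4.33e-05). Its 2 h value of 0.61 (SE 0.23, adjusted p = 0.0706) missed the threshold, and it was called by DESeq2 (0.62, adjusted p = 0.0371) and without 2 h replicate A (0.80, adjusted p = 0.0175). Both lines had the same order of means, 5, 2, 1, 0 and 48 h, in which 2 h overlapped 1 h in both lines and 0 h in CGR8. Of the exon bases of Ccne2, 17.4% are shared with Ints8 on the other strand.

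Ccne1 fell at 48 h in both lines by nearly the same amount. NIH/3T3 libraries held 74.5, 67.2 and 74.5 CPM at 0 h, 85.6, 83.98 and 80.6 at 5 h and 40.5, 39.2 and 39.1 at 48 h, and those of CGR8 held 213, 261 and 213, then 271, 236 and 217, then 116, 135 and 119.9 at the same times. At 48 h neither line overlapped its 0 h group, and at 5 h NIH/3T3 lay above 0 h while CGR8 overlapped it. The log2 fold change at 48 h was -0.89 (SE 0.079, adjusted p = 1.88e-07) in NIH/3T3 and -0.90 (SE 0.12, adjusted p = 6.38e-05) in CGR8. The difference between these responses was -0.02 (95% interval -0.32 to 0.27). In NIH/3T3 Ccne1 rose by 0.26 (SE 0.077, adjusted p = 0.016) at 2 h and 0.25 (SE 0.077, adjusted p = 0.0142) at 5 h on the log2 scale. Both calls were lost without 0 h replicate B (adjusted p = 0.0649 and 0.0654) and with no filter on low counts (0.121 and 0.139). In CGR8 the value was 0.14 (SE 0.12, adjusted p = 0.458) at 2 h and 0.02 (SE 0.12, adjusted p = 0.893) at 5 h. Ordered by mean, NIH/3T3 ran 2, 5, 0, 1 and 48 h with overlap of 2 h with 5 h and of 0 h with 1 h, and CGR8 ran in that order too, with overlap from 2 h to 0 h. No other annotated gene shares exon bases with Ccne1.

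Cdk4 and Cdk6 encode the partner kinases of the D-type cyclins, and edgeR called only Cdk6 against 0 h. Cdk4 in NIH/3T3 stood at 499, 509 and 549 CPM at 0 h, 523, 493 and 471 at 5 h and 469, 459.9 and 448 at 48 h. CGR8 held 592, 752 and 597 CPM at 0 h, 810.4, 747 and 604 at 5 h and 615, 666 and 587 at 48 h. The groups overlapped 0 h except in NIH/3T3 at 48 h and in CGR8 at 1 h, which lay below it. Its 8 log2 fold changes against 0 h ran from -0.24 (CGR8 at 1 h, adjusted p = 0.651) to 0.10 (CGR8 at 5 h, adjusted p = 0.51). The 95% interval at 5 h was -0.24 to 0.17 in NIH/3T3 and -0.14 to 0.34 in CGR8, and at 48 h it was -0.41 to -0.001 and -0.30 to 0.17. The NIH/3T3 interval at 48 h leaves out 0 although the F test gave an unadjusted p of 0.0664, so these normal intervals are somewhat narrow. In NIH/3T3 at 48 h Cdk4 was called at -0.21 with only the groups compared (adjusted p = 0.00146) and at -0.18 with voom (0.00191), and in CGR8 at 5 h voom called it at 0.21 (0.0373). Those bounds leave room for changes of that size, so a steady level is not shown. By mean the groups ran 2, 0, 1, 5 and 48 h in NIH/3T3 and 5, 2, 0, 48 and 1 h in CGR8, and in each line the last group was clear of its neighbour, although NIH/3T3 libraries of 48 h overlapped those of 1 h. Cdk4 shares 19.7% of its exon bases with Tspan31 on the other strand.

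Cdk6 had its lowest mean at 2 h in NIH/3T3 and at 5 h in CGR8. The edgeR fit of all 30 libraries called no difference between the lines' responses at 2 h (0.49, adjusted p = 0.422) or 5 h (-0.435, adjusted p = 0.201). In NIH/3T3 the libraries held 215, 188 and 192 CPM at 0 h, 198, 197 and 109 at 1 h, 97.4, 118 and 109.9 at 2 h, 134, 142 and 154 at 5 h and 239, 259 and 255 at 48 h. At 1 h the distant replicate C stood well below the other two, the 2 h and 5 h groups lay below 0 h, and 48 h lay above it. Fitted log2 fold changes were -0.84 (SE 0.16, adjusted p = 0.00115) at 2 h, -0.43 (SE 0.16, adjusted p = 0.0303) at 5 h and 0.31 (SE 0.16, adjusted p = 0.106) at 48 h. The 5 h call was lost without 0 h replicate A (adjusted p = 0.105), 0 h replicate C (0.0518), 5 h replicate A (0.106) or 5 h replicate B (0.0759), and with library totals alone (0.0501). In CGR8 Cdk6 stood at 87.5, 73.1 and 83.1 CPM at 0 h, 67.9, 69.1 and 50.2 at 2 h, 39.7, 43.5 and 47.3 at 5 h and 67.6, 59.02 and 72.1 at 48 h. All 3 of these later groups lay below 0 h without overlap. Of these, edgeR with all libraries called only the 5 h difference, at -0.96 (SE 0.14, adjusted p = 4.92e-05), or 1.94-fold lower. The others were -0.40 (SE 0.14, adjusted p = 0.0525) at 2 h and -0.31 (SE 0.14, adjusted p = 0.112) at 48 h. The 2 h fall was called by DESeq2 (adjusted p = 0.0355), by voom (0.00918), without a filter (0.0272) and without the distant libraries (0.0298). By mean NIH/3T3 ran 48, 0, 1, 5 and 2 h, with overlap of 1 h with 0 h, 5 h and 2 h, and CGR8 ran 1, 0, 48, 2 and 5 h, with overlap of 1 h with 0 h and of 48 h with 2 h. Per kb of exon at 0 h, Cdk4 stood at 159.7 ± 8.11 and Cdk6 at 14.2 ± 1.03 CPM per kb in NIH/3T3, and at 199 ± 28.04 and 5.81 ± 0.526 in CGR8.

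The upstream sequences of the 2 kinase genes are shown because the kinases share a role and their mRNAs gave different calls. They are the 250 bases before the RefSeq start site (GRCm38.p6, plus strand, 5′ to 3′), at chr10:127063285-127063534 for Cdk4 and chr5:3343643-3343892 for Cdk6, with the E-box CACGTG and the TATA motif TATAAA in capitals.
Cdk4: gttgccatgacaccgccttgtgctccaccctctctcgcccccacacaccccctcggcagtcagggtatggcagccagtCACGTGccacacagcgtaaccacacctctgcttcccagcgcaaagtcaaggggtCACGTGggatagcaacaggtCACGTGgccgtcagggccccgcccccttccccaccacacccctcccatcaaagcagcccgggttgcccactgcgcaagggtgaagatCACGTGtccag
Cdk6: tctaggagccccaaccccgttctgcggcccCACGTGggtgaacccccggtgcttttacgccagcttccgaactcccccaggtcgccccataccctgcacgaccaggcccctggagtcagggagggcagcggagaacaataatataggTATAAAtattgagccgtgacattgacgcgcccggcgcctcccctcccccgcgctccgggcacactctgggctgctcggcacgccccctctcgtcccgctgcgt
Cdk4 holds 4 matches to CACGTG, starting at -172, -118, -98 and -11 from the start site, and Cdk6 holds 1, at -220, beside a TATAAA at -103. The number of matches in Cdk4 was singled out after it was seen. Among 32851 RefSeq promoters, each from 250 bases before to 50 after a start site, 7.15% hold CACGTG at least once, and 8 (0.0244%) hold it at least 4 times. TATAAA on either strand is in 13.6%. The other motifs searched on both strands were TTTGGCGC and TTTCGCGC for E2F, TGACTCA for AP-1 and TGACGTCA for CRE, found in 0.514%, 0.323%, 5.2% and 1.79% of promoters. None of these 4 was in the windows of Ccnd3, Ccne1, Cdk4, Cdk6, Cdkn1b or Cdkn2c. None of these searched motifs overlaps another in the windows shown. The table matched 6 of the 10 genes, with 2 start sites each for Ccnd3 and Cdkn2c. Ccnd1, Ccnd2, Ccne2 and Cdkn1c had no entry. A match is a string of letters, and binding was not measured.

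Among the inhibitors, Cdkn1b rose at 5 h in both lines. This gene for p27 stood at 35.6, 42.1 and 36.4 CPM in NIH/3T3 at 0 h, 50.9, 56.02 and 49.4 at 5 h and 65.5, 68.6 and 64.2 at 48 h. In CGR8 the libraries held 35.9, 29.8 and 34.7 CPM at 0 h, 43.8, 47.8 and 46.7 at 5 h and 41.7, 37.95 and 41.6 at 48 h. At both later times all libraries lay above those of 0 h in each line. The log2 fold change was 0.49 (SE 0.11, adjusted p = 0.00104) at 5 h and 0.77 (SE 0.11, adjusted p = 1.72e-05) at 48 h in NIH/3T3, the latter a 1.703-fold level. In CGR8 it was 0.41 (SE 0.11, adjusted p = 0.00462) at 5 h, and the 48 h value of 0.26 (SE 0.11, adjusted p = 0.0797) missed the threshold. That 48 h rise was called by DESeq2 (0.28, adjusted p = 0.0377) and voom (0.19, adjusted p = 0.0493). By mean, NIH/3T3 ran 48, 5, 1, 2 and 0 h with 48 h alone clear of the next, and CGR8 ran 5, 48, 1, 0 and 2 h with 5 h and 48 h each clear of the next.

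Cdkn2c, for the CDK4/6 inhibitor p18, was abundant in NIH/3T3 and scarce in CGR8. In NIH/3T3 it stood at 65.3, 66.2 and 68.1 CPM at 0 h and 58.2, 61.1 and 59.5 at 1 h. Later levels were 51.4, 44.7 and 45.6 at 2 h, 40.0, 35.1 and 38.6 at 5 h and 81.2, 82.7 and 85.1 at 48 h. No 2 of these 5 groups overlapped: the order was 48, 0, 1, 2 and 5 h. Against 0 h the log2 fold change was -0.46 (SE 0.082, adjusted p = 0.000685) at 2 h, -0.78 (SE 0.082, adjusted p = 1.87e-06) at 5 h and 0.29 (SE 0.081, adjusted p = 0.00656) at 48 h, the last with an adjusted p of 0.0615 when no filter on low counts was used. CGR8 held 15 to 32 counts of Cdkn2c per library, or 1.01, 1.12 and 0.941 CPM at 0 h, 0.9097, 1.57 and 0.702 at 5 h and 0.7296, 0.669 and 0.847 at 48 h. The 5 h replicate B was the highest of the line and the groups at 0 h and 5 h overlapped. No time was called against 0 h in CGR8, with values of -0.67 (SE 0.27, adjusted p = 0.094) at 2 h, -0.03 (SE 0.26, adjusted p = 0.939) at 5 h and -0.46 (SE 0.27, adjusted p = 0.22) at 48 h.

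Cdkn1c, for p57, showed the opposite distribution between the lines. Each of the 15 NIH/3T3 libraries held 0 or 1 count, 4 counts in all, and the gene was not tested there. At 5 h all 3 held 0 counts, which allows up to 0.137 CPM in a library. In CGR8 it stood at 3.09, 5.15 and 3.36 CPM at 0 h, 6.004, 5.63 and 4.799 at 5 h and 7.11, 10.2 and 8.43 at 48 h. The 48 h libraries lay above all others of the line, and 5 h overlapped 0 h. It rose at 48 h, by 1.14 (SE 0.25, adjusted p = 0.0029) on the log2 scale, a 2.21-fold level. At 5 h the value was 0.45 (SE 0.26, adjusted p = 0.153), and 0.72 (adjusted p = 0.00486) without the 2 distant CGR8 libraries. Of its exon bases, 30.7% are shared with Gm44732 on the other strand. Means ran 48, 5, 2, 0 and 1 h, with 48 h alone clear of the next.

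At 0 h the lines differed in most of these genes. Of 10 members, 9 were called between CGR8 and NIH/3T3 at 0 h, 4 higher and 5 lower in CGR8, when 79.1% of all genes tested were called. Ccne1 was 3.18-fold higher in CGR8, with a log2 difference of 1.67 (SE 0.11, adjusted p = 2.55e-14), and Ccnd3 was higher by 0.73 (SE 0.16, adjusted p = 0.00022). Lower in CGR8 were Cdkn2c, by a log2 difference of -6.02 (SE 0.15, adjusted p = 8.55e-24) or 64.8-fold, and Ccnd2, by -4.95 (SE 0.15, adjusted p = 8.22e-22) or 30.9-fold. The libraries of the 2 lines did not overlap for any of these 4 genes, and the share of all genes without overlap is not given. Ccnd1 at -1.26 (SE 0.096, adjusted p = 1.33e-12), Cdk6 at -1.29 (SE 0.16, adjusted p = 1.81e-08) and Ccne2 at -0.91 (SE 0.19, adjusted p = 9.32e-05) were also lower in CGR8. Cdkn1c held 309 counts over the 3 CGR8 libraries and 1 over the 3 of NIH/3T3, a ratio of 278 with a 95% counting interval of 49.5 to 11000. Cdk4 was higher in CGR8 by 0.32 (SE 0.12, adjusted p = 0.0144), and without CGR8 0 h replicate B, a distant library, it was 0.22 (adjusted p = 0.0982). Cdkn1b was not called, at -0.18 (SE 0.10, adjusted p = 0.103). The median log2 difference over all genes was 0.15 with TMM factors, 0.23 with RLE factors and 0.21 with library totals alone. Line, medium and cell type cannot be told apart here.

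The responses of the lines were then compared with each other, as the log2 fold change in CGR8 minus that in NIH/3T3. By this test 0 of 10 members differed at 1 h (0.160% of all genes tested) and 0 at 2 h (2.02%). At each time 1 member had an unadjusted p under 0.05, beside 710 of 17549 genes at 1 h and 1766 at 2 h. DESeq2 and voom also called 0 at those times. The 10 include Cdkn1c, whose line differences from 1 h to 48 h had an SE of 1.27 to 2.47. With almost no counts of it in NIH/3T3, this test could say little about that gene. At 5 h 2 differed (13.3% of all genes) and at 48 h 5 differed (21.9%). At 5 h these were Ccnd2, at -0.93 (SE 0.21, adjusted p = 0.00387), where the fall was deeper in CGR8, and Cdkn2c, at 0.83 (SE 0.23, adjusted p = 0.0138), where NIH/3T3 stood at -0.78 and CGR8 at -0.03. The Cdkn2c difference was 0.30 (adjusted p = 0.59) without CGR8 5 h replicate B and 0.73 (adjusted p = 0.0693) without CGR8 5 h replicate A. Its SE of 0.23, from the fit of all 30 libraries, was below the 0.26 of the CGR8 change in its own fit. The precision of the Cdkn2c difference may thus be overstated. The median of the 5 h line difference over all genes was 0.13 with TMM factors, 0.05 with RLE factors and -0.06 with library totals alone. Library totals alone give Cdkn2c 0.64 (adjusted p = 0.064). Without the 4 distant libraries 5 members were called at 5 h, with Ccnd3 at 0.43 (adjusted p = 0.0207), Cdk4 at 0.33 (0.0469) and Cdk6 at -0.51 (0.0151) added.

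At 48 h the lines parted in the D-type cyclins. Ccnd1 differed by 1.06 (SE 0.14, adjusted p = 1.56e-06), having fallen in NIH/3T3, and Ccnd3 by -1.06 (SE 0.23, adjusted p = 0.0012), having fallen in CGR8. Cdkn1b differed by -0.53 (SE 0.15, adjusted p = 0.00894) and Cdkn2c by -0.77 (SE 0.23, adjusted p = 0.0146), both with the higher fold change in NIH/3T3. The Cdkn2c call was lost without CGR8 0 h replicate B (-0.69, adjusted p = 0.055) or CGR8 48 h replicate B (-0.69, adjusted p = 0.0592). Its SE of 0.23 was again below that of the CGR8 change alone (0.27), so its precision may be overstated. Cdk6 differed by -0.64 (SE 0.22, adjusted p = 0.0348), between -0.31 in CGR8 and 0.31 in NIH/3T3, neither of them called. Voom called both, at an adjusted p of 0.00573 in CGR8 and 0.00106 in NIH/3T3, as did fits of only the groups compared (0.0489 and 0.000667), and the NIH/3T3 value was also called without a filter (0.0277). Leaving out CGR8 0 h replicate A or C, CGR8 48 h replicate A or B, NIH/3T3 0 h replicate B or C, or any NIH/3T3 48 h replicate ended that call, at an adjusted p of 0.055 to 0.103. The main fit called no difference for Ccne1, Ccne2, Cdk4 or Ccnd2. Their 95% intervals were -0.32 to 0.27, -0.89 to 0.19, -0.20 to 0.44 and -0.85 to -0.09, in that order. The Ccnd2 difference was called with library totals alone (-0.55, adjusted p = 0.0371), only the groups compared (-0.46, 0.0459) and voom (-0.43, 0.0489). Leaving out CGR8 48 h replicate C also gave a call for Ccnd2 (-0.64, adjusted p = 0.0205). Ccne2 was called without the distant libraries (-0.57, adjusted p = 0.027) and with voom (-0.50, 0.0379). For Cdkn1c, nearly without counts in NIH/3T3, no interval is given.

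Setting 48 h against 5 h gives a comparison without the 0 h libraries. In NIH/3T3 8 of 9 members were called, 5 higher and 3 lower, against 65.6% of all genes tested, and in CGR8 6 of 10, 4 higher and 2 lower, against 57.5%. The E-type cyclins fell in both lines. For Ccne2 the log2 fold change was -1.70 (SE 0.13, adjusted p = 1.4e-08) in the fibroblasts and -2.29 (SE 0.24, adjusted p = 1.59e-06) in the stem cells, or 3.24-fold and 4.897-fold lower. Ccne1 gave -1.14 (SE 0.079, adjusted p = 7.9e-09) and -0.92 (SE 0.12, adjusted p = 1.51e-05). Ccnd2 rose in both lines, by 1.01 (SE 0.12, adjusted p = 1.81e-06) in NIH/3T3 and 1.57 (SE 0.19, adjusted p = 6.18e-06) in CGR8, and Cdk6 rose by 0.75 (SE 0.16, adjusted p = 0.000579) and 0.65 (SE 0.14, adjusted p = 0.000932). None of these groups overlapped, and the share of all genes without overlap is not given. Ccnd1 moved in opposite directions, at -0.58 (SE 0.085, adjusted p = 1.89e-05) in NIH/3T3 and 0.70 (SE 0.11, adjusted p = 6.91e-05) in CGR8. Cdkn2c rose in NIH/3T3 by 1.07 (SE 0.082, adjusted p = 2.15e-08) and Ccnd3 by 0.83 (SE 0.14, adjusted p = 5.36e-05), while in CGR8 they had values of -0.43 (SE 0.28, adjusted p = 0.189) and -0.39 (SE 0.17, adjusted p = 0.0632). Cdkn1b rose in NIH/3T3 by 0.28 (SE 0.10, adjusted p = 0.0254), a call lost without 48 h replicate B (adjusted p = 0.0821), 5 h replicate A (0.0981) or 5 h replicate C (0.0904). Cdkn1c rose in CGR8 by 0.69 (SE 0.25, adjusted p = 0.0252), lost without 48 h replicate B (adjusted p = 0.1), 48 h replicate C (0.0508), 5 h replicate B (0.0539) or 5 h replicate C (0.0722).

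Other parts of the pathway were followed through 5 lists of genes, and those named are the called genes with the largest rise or fall among those of at least 10 CPM. The lists' counts stand beside the shares of all genes tested that rose and fell: 24.0% and 27.1% in NIH/3T3 and 24.9% and 27.2% in CGR8 at 5 h, and 26.7% and 25.6% in NIH/3T3 and 12.2% and 15.6% in CGR8 at 48 h. The lists were not tested against them. The S-phase targets of E2F, which include the Mcm helicase subunits and enzymes of nucleotide synthesis, fell at 48 h in NIH/3T3: 0 of 21 rose and 18 fell, with a median log2 fold change of -0.71 beside -0.01 over all genes. At the same time in CGR8 1 rose and 4 fell, with a median of -0.03. At 5 h 3 rose and 5 fell in NIH/3T3 (median -0.03), and 12 rose and 1 fell in CGR8 (median 0.31). Ung, which removes uracil from DNA, fell most in NIH/3T3 at 48 h, at -1.27 (SE 0.12, adjusted p = 4.89e-07). Gins2, a subunit of the replicative helicase, rose most at 5 h in both lines, at 0.62 (SE 0.13, adjusted p = 0.000847) in NIH/3T3 and 1.14 (SE 0.17, adjusted p = 4.9e-05) in CGR8, while the licensing factor gene Cdt1 fell most, at -0.82 (SE 0.12, adjusted p = 2.75e-05) and -0.30 (SE 0.11, adjusted p = 0.0338). At 48 h in CGR8 Gins2 stood at -0.68 (SE 0.17, adjusted p = 0.0062) and Pola1, for a DNA polymerase subunit, at 0.51 (SE 0.16, adjusted p = 0.025).

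Of the pocket proteins, E2F and DP factors, 1 rose and 9 fell of 12 tested in NIH/3T3 at 5 h (median -0.39), and 1 rose and 7 fell of 13 in CGR8 (median -0.37), beside 27.1% and 27.2% of all genes that fell. E2f1, an activating E2F, fell in NIH/3T3, at -1.15 (SE 0.11, adjusted p = 4.88e-07) at 5 h and -0.77 (SE 0.10, adjusted p = 1.56e-05) at 48 h. In CGR8 the largest fall at 5 h was that of E2f3, another activator, at -0.66 (SE 0.14, adjusted p = 0.000787). E2f5, a repressive E2F, stood in that line at 0.30 (SE 0.12, adjusted p = 0.0412) at 5 h and -0.65 (SE 0.12, adjusted p = 0.000711) at 48 h. The pocket protein gene Rbl1 rose in NIH/3T3 at 5 h, at 0.66 (SE 0.14, adjusted p = 0.000961). Rbl2, for the pocket protein p130, rose at 48 h in NIH/3T3, at 0.53 (SE 0.13, adjusted p = 0.00196), and in CGR8, at 1.04 (SE 0.25, adjusted p = 0.00601). Counts at 48 h were 3 higher and 6 lower in NIH/3T3 and 2 higher and 1 lower in CGR8.

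Of the other cyclins, CDKs and activators, 3 rose and 4 fell of 13 tested in NIH/3T3 at 5 h (median -0.18) and 7 rose and 1 fell of 13 in CGR8 (median 0.30). Mnat1, an assembly factor of the CDK-activating kinase, rose most at 5 h in both, at 1.21 (SE 0.13, adjusted p = 3e-06) and 0.95 (SE 0.11, adjusted p = 7.96e-06), and in NIH/3T3 at 48 h, at 0.50 (SE 0.13, adjusted p = 0.00507). Among the phosphatases that activate CDKs, Cdc25a fell in NIH/3T3 at 5 h, at -0.52 (SE 0.10, adjusted p = 0.000515), and Cdc25b in CGR8, at -0.69 (SE 0.11, adjusted p = 8.29e-05), with a rise there at 48 h of 0.42 (SE 0.11, adjusted p = 0.00708). At 48 h 1 rose and 9 fell in NIH/3T3, led by the mitotic kinase gene Cdk1 at -0.70 (SE 0.094, adjusted p = 1.44e-05), and 2 rose and 2 fell in CGR8, where Ccnb2, a mitotic cyclin gene, stood at -0.70 (SE 0.098, adjusted p = 7.34e-05).

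Among the other CDK inhibitors, the neighbouring INK4 genes Cdkn2a and Cdkn2b had 0 counts in all 15 NIH/3T3 libraries, a line known to have lost the Ink4a/Arf locus. Cdkn1a, the p53-responsive gene for p21, fell in NIH/3T3 at 5 h, at -0.91 (SE 0.079, adjusted p = 3.17e-07), and rose in CGR8 at 48 h, at 0.48 (SE 0.11, adjusted p = 0.00342). Cdkn2d, for the INK4 protein p19, rose in CGR8 at 5 h, at 1.35 (SE 0.13, adjusted p = 1.32e-06), and in NIH/3T3 at 48 h, at 0.55 (SE 0.11, adjusted p = 0.000703). Both inhibitors tested in NIH/3T3 rose at 48 h, and of 4 tested in CGR8 2 rose and 1 fell at 5 h. Of 11 ubiquitin ligase parts that turn over G1 regulators, 5 were higher and 2 lower in NIH/3T3 at 5 h, and 4 higher and 4 lower in CGR8, beside 24.0% and 27.1%, and 24.9% and 27.2%, of all genes. Fbxw7, the receptor that targets cyclin E, fell in CGR8 at 5 h, at -0.69 (SE 0.14, adjusted p = 7e-04), and Rbx1, a RING subunit, rose, at 0.85 (SE 0.13, adjusted p = 9.32e-05). In NIH/3T3 at 5 h Fbxo4 was at 0.54 (SE 0.15, adjusted p = 0.00655) and Rnf123, a ligase for p27, at -0.76 (SE 0.14, adjusted p = 0.00036). At 48 h Skp2, the receptor that targets p27, rose in CGR8, at 0.33 (SE 0.10, adjusted p = 0.0253). In NIH/3T3 at 48 h 1 rose and 4 fell, with Rnf123 at 0.38 (SE 0.14, adjusted p = 0.0289) and the adaptor gene Skp1a at -0.83 (SE 0.14, adjusted p = 9.15e-05).

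**Figure D4:**
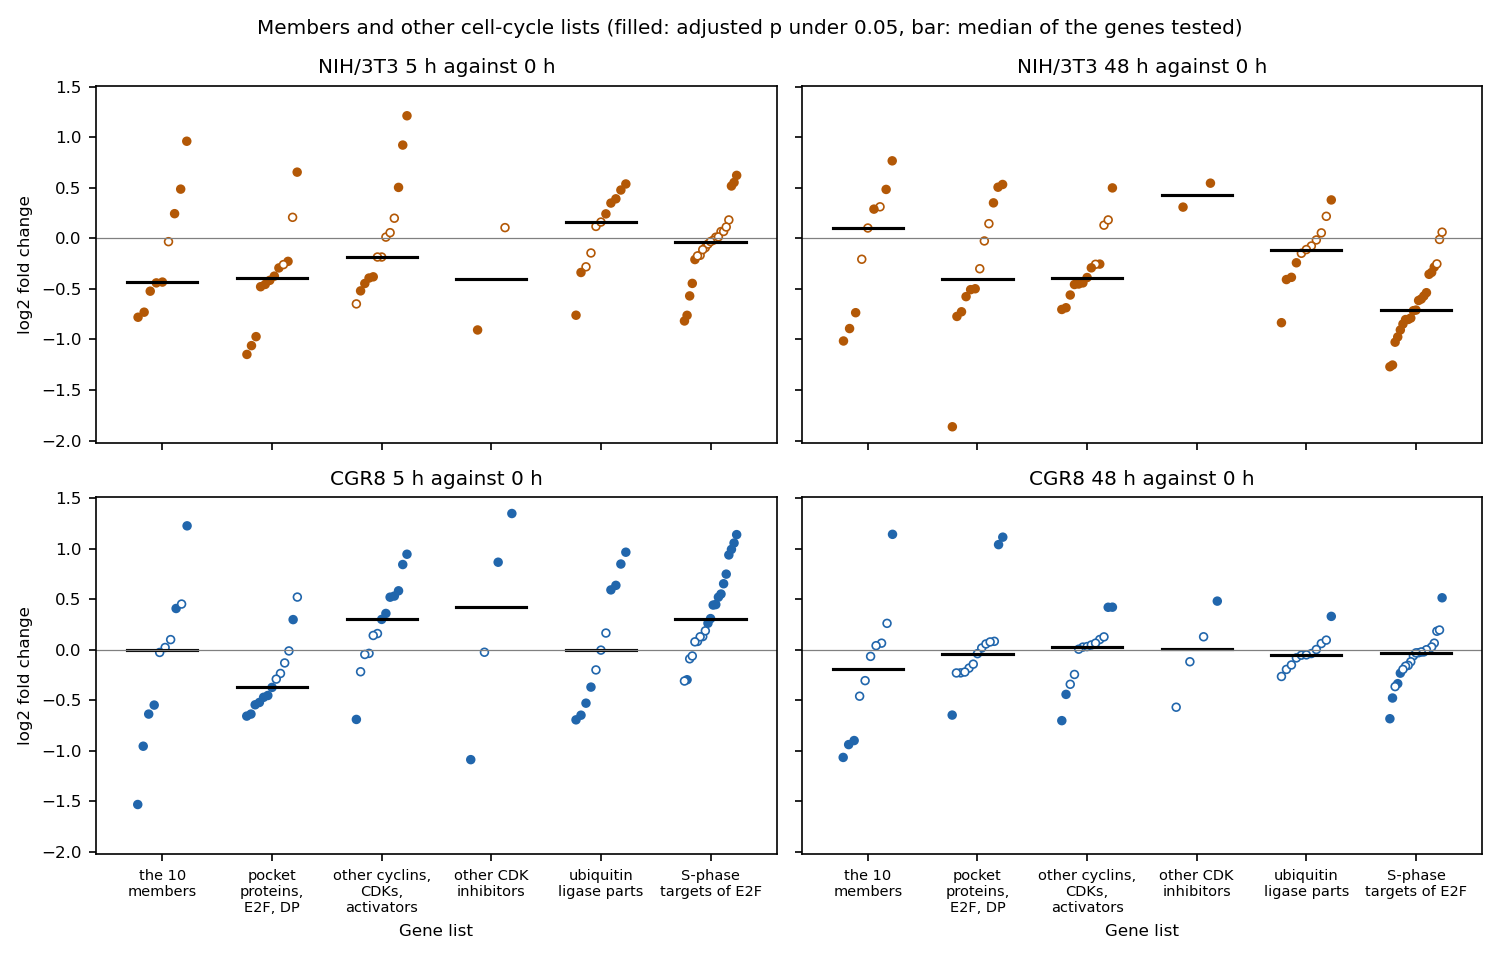
Log2 fold change against 0 h of each gene tested (dots, filled for an adjusted p under 0.05) in the 10 members and the 5 lists, with a bar at the median, at 5 h and 48 h in each line. In NIH/3T3 at 48 h the S-phase targets sit low, with a median of -0.71, while in CGR8 at 48 h their median is -0.03.

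Over the 8 changes against 0 h (4 times in 2 lines), the genes whose fitted log2 fold changes were closest to each member's were ranked by root mean square difference among 7047 genes. The measure describes these fits, in which times of a line share their 0 h libraries. Ccnd1 was closest to Uck2 (0.13) and Tmem50b (0.13). For Ccnd2 they were Arap1 (0.13) and Tiam1 (0.14), and for Ccnd3 Shisa5 (0.10) and Ssbp4 (0.13). Among the E-type cyclins Ccne1 was closest to Sbds (0.10) and Cox7a2l (0.12). Ccne2 had no gene as close, with Tomm5 (0.23) and Dynlt1a (0.24) first. Cdk6 was nearest to Sptan1 (0.11) and Uhrf1bp1 (0.13), and Cdkn1b to Cog5 (0.12) and Pcyt1a (0.14). Cdk4, Cdkn1c and Cdkn2c were not called against 0 h in both lines and were not ranked.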

How the data were processed

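The values are whole-number counts of reads per gene as deposited, with 1 column for each of 30 libraries, from a stranded mRNA library kit per the labels' protocols. The submitters' processing notes name STAR, DESeq2 and GRCm39, with no role. The annotation, the counting tool and its use of strand are not given in the sources used here. All 30 columns were assigned by their labels and 0 were left out. No 2 replicates agreed within sampling noise (chi-square over its degrees of freedom at least 1.67). Of 57186 identifiers, 51880 (90.7%) had a symbol in the reference table once version suffixes were dropped.

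The analysis ran in R 4.3.3. Fits used edgeR 4.0.16 with filterByExpr (minimum count 10, minimum total 15), TMM factors, and quasi-likelihood F tests adjusted by Benjamini-Hochberg over all genes tested, with calls at an adjusted p under 0.05. Each line's 15 libraries were fitted together, and all 30 for comparisons between lines. CPM uses library totals times TMM factors of the fit of all 30 libraries, and 95% intervals take the fitted change as normal with its SE. Such intervals can be narrower than the F test allows. Tests of the 5 h comparisons were checked on simulated counts. For changes of log2 size 1 they recovered 84.7% in NIH/3T3, 79.3% in CGR8 and 48.6% for the line difference. False calls made up 4.76%, 6.99% and 5.43% of the calls in these 3 checks, so a missing line difference is weak evidence. In the NIH/3T3 check 98 and 102 of 13649 genes were changed, at log2 sizes 1 and 2, whereas 51.0% were called in the data. The recovered shares may therefore not carry over to the data. A count of 0 allows up to 3 counts, and limits and intervals on counts cover counting error only. Exon lengths and overlaps are from GENCODE M21 and promoters from RefSeq (GRCm38.p6), both another build than the counts.

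The members and lists were chosen with earlier results of these data known. All members are named. From each list the called genes with the largest rise and fall at 5 h and 48 h were named at a mean of at least 10 CPM, and for each member called in both lines the 2 genes with the closest fitted changes. Replicate letters were not used to pair libraries. Residuals of the same letter had a mean correlation of 0.0115 in NIH/3T3 (-0.299 to 0.327) and 0.0185 in CGR8 (-0.578 to 0.421). A mean near 0 with such a range cannot exclude pairing. Alternatives were RLE factors, library totals alone, DESeq2 1.42.0, voom with sample weights in limma 3.58.1, no filter, a mean of at least 5 CPM, only the groups compared, a replicate block, each library left out and, added after seeing the data, the 4 distant libraries left out together.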

Additional observations from a re-analysis of the deposited data

Results flagged for a closer look

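The changes from 0 h differed between the lines, by the interaction test of edgeR, for 7 member results. No later time has an untreated library, so CHX and time in culture cannot be told apart in them. At 5 h the log2 fold change in CGR8 minus that in NIH/3T3 was -0.93 (adjusted p = 0.00387) for Ccnd2, between -1.53 in CGR8 and -0.52 in NIH/3T3. It was 0.83 (adjusted p = 0.0138) for Cdkn2c, which rests on 15 to 32 counts per CGR8 library and on CGR8 5 h replicate B, without which it was 0.30 (adjusted p = 0.59).

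At 48 h the difference was 1.06 (adjusted p = 1.56e-06) for Ccnd1, which lay at 0.07 in CGR8 and -1.02 in NIH/3T3, and -1.06 (adjusted p = 0.0012) for Ccnd3, at -0.94 and 0.10. Cdkn1b differed by -0.53 (adjusted p = 0.00894), at 0.26 and 0.77. The value for Cdkn2c was -0.77 (adjusted p = 0.0146), at -0.46 and 0.29. For Cdk6 it was -0.64 (adjusted p = 0.0348), the least stable of the 48 h calls when single libraries were left out. Both Cdkn2c differences had an SE below that of the CGR8 change alone, so their precision may be overstated.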

How the results depend on the processing

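No member result turned its direction while called. RLE factors left all 145 values on the same side of the threshold, and leaving out single libraries did so for 1061 of 1110 values, with 40 calls lost and 9 gained. Values that were not called changed sign in 77 of the 1110. All calls that could be recomputed without the 4 distant libraries were kept, and 11 were gained.

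The count of members called moved by more than 1.5 times in 4 comparisons, and the cause was not tested. For CGR8 at 2 h it was 1, and it became 2 with library totals alone, 4 with DESeq2, 3 without a filter, 4 with voom, 0 with only the groups compared, 4 without the distant libraries and 0 to 5 when each library was left out. For NIH/3T3 at 1 h it was 0, and it became 1 with DESeq2, 1 without a filter, 2 with voom and 2 without the distant libraries. The line difference at 5 h gave 2 members, and 1 with library totals alone, without a filter or with only the groups compared, 5 with voom or without the distant libraries, and 1 to 2 with a library left out. At 48 h it gave 5, and 3 without a filter, 8 with voom and 3 to 6 with a library left out. The 8 with voom include Cdkn1c, nearly without counts in NIH/3T3.

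Calls gained numbered 21 of 145 values with voom, 6 with DESeq2, 6 with only the groups compared and 5 without a filter. Other settings also ended single calls. With only the groups compared these were Ccnd2 (adjusted p = 0.0674) and Ccnd3 (0.104) in NIH/3T3 at 2 h, Ccnd2 in CGR8 at 2 h (0.0748) and the line difference of Cdkn2c at 5 h (0.0584). Without a filter they were that difference (0.086), the 48 h line differences of Cdkn1b (0.0779) and Cdkn2c (0.0933), and Cdkn1b at 48 h against 5 h in NIH/3T3 (0.0622).

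With the replicate block the count for CGR8 at 2 h was 2 in place of 1, and no other count of members called moved by over 1.5 times. Same-letter libraries had residual correlations above 0.1 in 3 of 30 pairs in NIH/3T3 and 9 of 30 in CGR8. The letters were treated as names in the main fits, although these values cannot exclude pairing. With library totals alone the median log2 fold change of all genes in CGR8 at 5 h moved from -0.01 to -0.12. Genes of few counts, Cdkn2c and Ccnd2 in CGR8 and Cdkn1c in both lines, are limited by depth.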
